A study of Mus musculus with 36 samples.

Results

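Rapamycin, a macrolide inhibitor of the kinase mTOR, is the treatment described here: the 3 arrays of mouse epiblast stem cells (EpiSC) that received it, chosen by the drug named in their labels, were compared with the 27 arrays of the other 9 compounds, out of 36 arrays in all. EpiSC are cultured pluripotent cells akin to those of the embryo just after implantation, and they grew on Matrigel in fibroblast-conditioned medium with bFGF and Activin, with no named line or clone in the labels. Each compound had 1 array in each of 3 schedules: no retinoic acid (RA, a differentiation signal made from vitamin A) with the compound for 24 h, RA at 5 µM for 24 h with the compound for 36 h, and RA at 5 µM for 36 h with the compound for 24 h. Rapamycin was given at 100 nM. The comparators on the same slide, called slide mates below, were PF573228 (an inhibitor of focal adhesion kinase, 250 nM), Dorsomorphin dihydrochloride (of BMP receptors and AMPK, 2 µM), BAY 11-7082 (of NF-kB activation, 25 µM) and Forskolin (an activator of adenylyl cyclase, 50 µM). The other 5 were BAPTA-AM (a calcium chelator, 10 µM), Docetaxel (a microtubule stabiliser, 500 pM), Wortmannin (an inhibitor of PI3 kinases, 50 nM), Purmorphamine (an agonist of Smoothened, 2 µM) and SU5402 (an inhibitor of FGF receptors, 2 µM). Basal medium (Mock) and conditioned medium arrays were no part of the comparator, and Mock values are given beside some genes only as a level without compound.

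Rapamycin binds the small protein FKBP12, encoded by Fkbp1a, and the pair docks on mTOR and blocks mTOR complex 1, which senses growth factors and amino acids on the lysosome. Active complex 1 phosphorylates S6 kinases and the 4E-BP proteins to raise translation, holds back autophagy through ULK1, and keeps the transcription factor TFEB out of the nucleus. At the level of RNA, work in other cells has tied the complex to sterol synthesis through SREBP, to glycolysis through HIF1A, to amino acid metabolism through ATF4, and, when it is blocked, to lysosome genes through TFEB. These arrays measured RNA and no phosphorylation.

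TFEB binds a DNA element whose core reads TCACGTGA on both strands and which contains the shorter E-box CACGTG. These promoter windows are shown because they place that core (in capitals) next to lysosome and autophagy genes whose values under Rapamycin follow, and all 8 with the core are given. The core was found for 8 of 44 such genes that were tested here (18.2%), and for 210 of all 9967 tested genes with a promoter sequence. Counted by single promoters, of genes tested or not, it was found in 320 of 32851 (0.974%), which is not the same unit. The windows ran from 250 bases before to 50 after the start site. Sequences are from RefSeq, build GRCm38.p6, 5′ to 3′ on the gene's strand. A match is a description of letters and not a measured binding site.
Mcoln1, chr8:3500462-3500491, plus strand: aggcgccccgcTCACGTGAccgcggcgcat
Ctsd, chr7:142387908-142387937, minus strand: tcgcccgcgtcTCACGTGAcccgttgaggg
Ctsa, chr2:164833749-164833778, plus strand: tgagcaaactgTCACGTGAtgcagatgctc
Cln3, chr7:126583340-126583369, minus strand: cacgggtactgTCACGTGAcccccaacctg
Atp6v0d1, chr8:105566050-105566079, minus strand: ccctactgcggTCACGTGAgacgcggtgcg
Atg3, chr16:45158746-45158775, plus strand: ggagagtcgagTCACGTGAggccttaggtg
Atp6v0e, chr17:26676387-26676416, plus strand: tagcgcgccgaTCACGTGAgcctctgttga
Atp6v1a, chr16:44139373-44139402, minus strand: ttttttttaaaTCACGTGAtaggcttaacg

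The Rapamycin arrays were of ordinary quality. Their mean raw signal lay between 458.5 and 559.6, against 360.3 to 692.5 on the arrays of the other 9 compounds, and 38.9% to 41.0% of probes were detected, against 37.4% to 43.1%. Across genes, a Rapamycin array correlated with the 9 others of its schedule at r between 0.986 and 0.995 (all points of an array share its library and normalisation). Rapamycin always lay at position A of its slide, a position that BAPTA-AM held on the slides without Rapamycin, so position and compound cannot be told apart. The Mock array labelled RA 24 h stood apart, with the epiblast factor Pou5f1 at 7.07 (log2 level) against 9.06 to 9.75 on the arrays of the other 9 compounds in that schedule, and it is not used to judge that schedule. Nothing in the labels says that the arrays came from separate cultures, so p-values measure the spread between these samples only.

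Markers of the cell type were present. Of 8 epiblast markers, 7 passed the detection filter (Epcam did not), and no marker passed the test between Rapamycin and the other 9. Pou5f1, a core pluripotency factor, was at 12.26 without RA, 9.36 at RA 24 h and 8.36 at RA 36 h under Rapamycin, against 12.18 to 12.49, 9.06 to 9.75 and 6.66 to 7.90 under the other 9 compounds. In the RA 36 h schedule alone did the Rapamycin array lie above all others for 4 of these 7 markers, Pou5f1, Otx2, Sox2 and Dnmt3b, whereas it lay above them for 0 markers at RA 24 h and for 1 without RA. At RA 36 h these 4 differed by 1.08, 1.39, 0.34 and 0.29 from the mean of all 9 compounds. From the mean of the slide mates they differed by less, 0.89, 0.74, 0.17 and 0.16. The part of the slide in these values was not tested. The mean over the 7 markers was 8.54 under Rapamycin at RA 36 h, against 7.46 to 8.50 on the other arrays. Of the markers of other cells, Lum, Postn and Fbn1 (fibroblast), Afp (endoderm) and Pecam1, Cdh5 and Ptprc (vessel and blood) had no probe past the filter, and Cdx2, Elf5, Sox17, Gata4 and Dcx were detected on 0 of the 3 Rapamycin arrays. Others were present: Col1a1, Col1a2, Dcn and Thy1 (fibroblast), Tfap2c and Krt7 (trophoblast) and Gata6 (endoderm) were detected on all 3 Rapamycin arrays, and Ttr (endoderm), Sox1 and Pax6 (neural) on 2.

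No gene separated Rapamycin from the other 9 compounds after adjustment. The additive model of compound and schedule (limma, 18 residual degrees of freedom) called 0 of 16235 genes (0%) at an adjusted p of 0.05, the lowest adjusted p being 0.414, for St8sia3. Without adjustment, 565 genes had p under 0.05 (3.48%), of which 298 were higher (1.84%) and 267 lower (1.64%) under Rapamycin. The estimates were small: the furthest difference from 0 was 0.81 on the log2 scale, 53 genes differed by 0.5 or more and 0 by 1 or more. The median difference over all genes was -0.0016.

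The intervals bound the differences in normalised level that these 3 arrays could have missed. For genes near the detection limit they do not bound the fold in RNA, because the size there depends on how low signals were treated. Gnb1l, such a gene, differed by -0.81 here, by -0.097 with the deposited log2 values and by -1.15 with signals floored at 16. The 95% confidence interval of the difference lay within 1 log2 unit of 0, a factor of 2 in either direction, for 16198 genes (99.8%), and within 0.5 for 12747 genes (78.5%), with a median half-width of 0.279. In simulated data that kept the sample layout and gene-wise spread and held 200 changed genes, the same test recovered 56.7% of changes of 0.5, 98.5% of changes of 1 and 100% of changes of 2 log2 units against the other 9 compounds. The same run also called 15 unchanged genes. Its errors were normal and independent, and its changes were added at full size also to genes near background. It therefore does not give the recovery for genes near background. A change in few genes is harder to call than in that simulation, where many changed at the same time. Over the same genes and with the same model, Docetaxel had 107 called genes and each of the other 8 compounds 0, with 558 to 889 genes at unadjusted p under 0.05 for those 8.

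The whole profile of Rapamycin lay within the range of the other compounds in size and in likeness between schedules. The SD over genes of the Rapamycin array minus the mean of the other 9 was 0.243 without RA, 0.258 at RA 24 h and 0.251 at RA 36 h. Those values rank 7, 3 and 3 from the smallest among the 10 compounds, whereas Docetaxel reached 0.340 without RA. Across 16235 genes, the deviations of the Rapamycin arrays correlated at -0.11 between RA 24 h and no RA, -0.06 between RA 36 h and no RA, and 0.06 between both RA schedules. With Docetaxel left out of the comparator the same r were -0.07, -0.04 and 0.07. Docetaxel's own deviations correlated at 0.05, 0.03 and 0.17. Genes are not independent replicates, and these r describe these arrays.

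**Figure D1:**
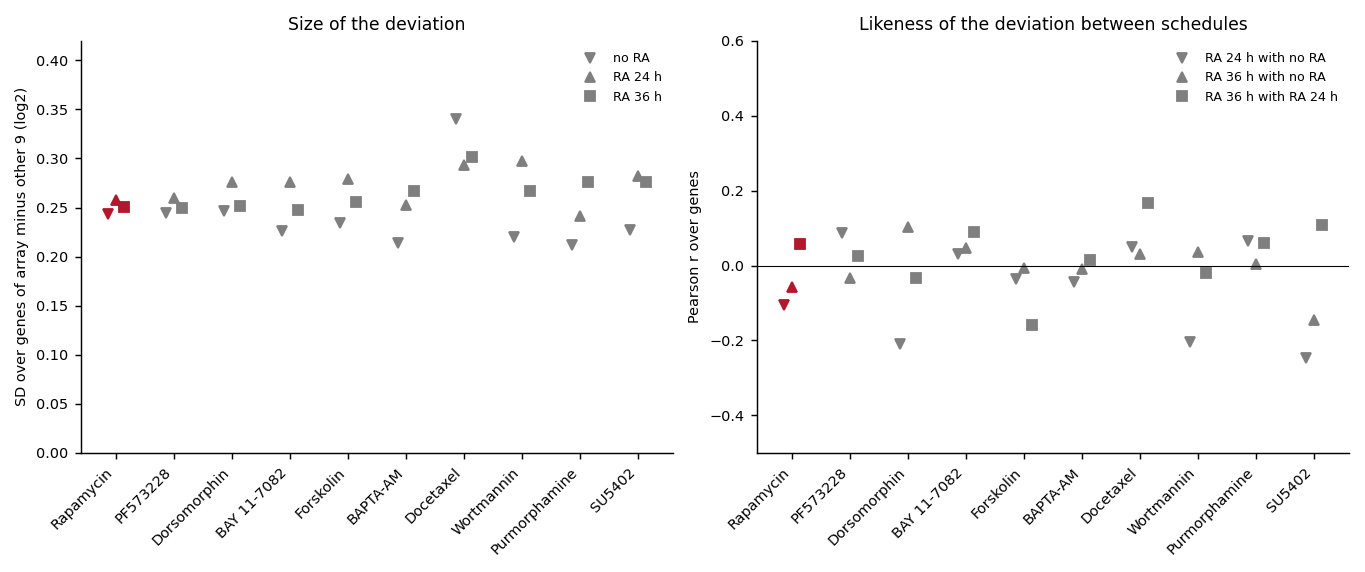
Left, SD over 16235 genes of each array minus the mean of the other 9 compounds in its schedule (log2). Right, Pearson r over genes between the deviations of the same compound in 2 schedules. Rapamycin is in red at the left of each panel, the other compounds in grey. Rapamycin lies between 0.243 and 0.258 in SD and between -0.11 and 0.06 in r, inside the range of the others.

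mTOR pathway genes came out level with the other 9 compounds. Of 56 members of the complex, regulator and substrate lists, 49 were tested. Lamtor5 and Rps6kb1 had no probe with that symbol, and Telo2, Lamtor3, Rps6kb2, Eif4ebp3 and Tfeb had no probe past the detection filter. Of the 49 members, 0 were called (0% of all genes), 1 had an unadjusted p under 0.05 (3.48% of all genes), 29 were on the positive side, and the median difference was 0.022. All 49 intervals lay within 1 log2 unit of 0 and 45 within 0.5. The 4 wider ones were those of Prr5, Sesn2, Depdc5 and Sgk1. Detected on all 3 Rapamycin arrays were 45 of the 49 members. The values of Rraga, Rnf152, Fnip2 and Akt1 rest in part on background, so their intervals say little about their RNA.

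The subunits of both mTOR complexes ranged from -0.22 to 0.079 over 10 tested members. Mtor, the kinase itself, was at 8.74 without RA, 8.98 at RA 24 h and 9.06 at RA 36 h under Rapamycin, against 8.89 to 9.26, 8.93 to 9.29 and 8.93 to 9.50 under the other 9 compounds. The Rapamycin array was the lowest of 10 without RA and inside the range in both RA schedules, and the difference was -0.14 (95% CI -0.34 to 0.06). Rptor, the subunit that defines complex 1, was at 9.66, 9.28 and 9.62 under Rapamycin in the same order of schedules, against 9.52 to 9.76, 9.19 to 9.53 and 9.13 to 9.76 under the other 9. Every Rapamycin value lay inside these ranges (difference 0.05, CI -0.17 to 0.28). Rictor, which defines complex 2, differed by 0.01 (CI -0.16 to 0.18) and Mlst8, shared by both complexes, by 0.02 (CI -0.14 to 0.17). Apart from Mtor, the estimates furthest below 0 were those of Prr5, a complex 2 subunit, at -0.22 (CI -0.52 to 0.08), Prr5l, its paralog, at -0.14 (CI -0.44 to 0.17) and Deptor, an inhibitor of both complexes, at -0.13 (CI -0.45 to 0.19).

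Among the regulators of complex 1, 26 of 28 were tested, with a median difference of 0.018. Fkbp1a, the intracellular receptor of the drug, was at 11.82 without RA, 11.76 at RA 24 h and 12.07 at RA 36 h under Rapamycin, against 11.85 to 12.07, 11.55 to 11.97 and 11.80 to 12.05 under the other 9 compounds. It was the lowest of 10 without RA and the highest at RA 36 h, and the difference of 0.02 had an interval of -0.13 to 0.18. Rheb, the GTPase that switches complex 1 on, differed by -0.06 (CI -0.30 to 0.17), and Tsc2, part of the complex that switches Rheb off, by 0.04 (CI -0.11 to 0.18). The Rag GTPases that recruit mTOR to the lysosome ranged from -0.11 for Rragd to 0.08 for Rraga. Rraga was near background: under Rapamycin it was detected only at RA 24 h. On the other 9 compounds' arrays it was detected on 4 of 9 at RA 36 h and on 0 of 9 in both other schedules.

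Among the 49 members, Sesn2 differed most between schedules. Sesn2, a leucine sensor that is induced by ATF4 and p53, was at 7.34 without RA, 7.83 at RA 24 h and 8.09 at RA 36 h under Rapamycin, against 7.12 to 8.82, 6.22 to 8.04 and 7.07 to 8.08 under the other 9 compounds. Rapamycin was highest of 10 at RA 36 h and second at RA 24 h, and seventh without RA, and the difference of 0.37 had an interval of -0.10 to 0.84. Ddit4, an inhibitor induced by hypoxia and ATF4, was at 9.45, 7.95 and 8.27 under Rapamycin, against 8.60 to 9.68, 7.76 to 8.65 and 8.02 to 8.52 under the other 9. All 3 values lay inside those ranges (difference 0.06, CI -0.28 to 0.39). Fnip2, a partner of folliculin, was the 1 member with an unadjusted p under 0.05 (difference 0.21, CI 0.01 to 0.41), but it was detected on 1 of the 3 Rapamycin arrays and its values lay inside the range of the other 9 compounds in every schedule.

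Transcripts of the substrate list leaned to the positive side, with 10 of 13 tested members above 0 and a median of 0.059, against -0.0016 over all genes. Akt1, among those 10, was detected under Rapamycin only without RA. That list mixes targets of mTOR itself with proteins further downstream, such as Rps6. Eif4ebp1, the translation repressor 4E-BP1, was at 13.18 without RA, 12.72 at RA 24 h and 12.89 at RA 36 h under Rapamycin, against 12.84 to 13.36, 12.51 to 12.88 and 12.64 to 13.13 under the other 9 compounds, all inside the range (difference 0.06, CI -0.14 to 0.25). Maf1, a repressor of RNA polymerase III, was at 12.03, 11.84 and 11.68 under Rapamycin, against 11.70 to 11.97, 11.59 to 11.80 and 11.36 to 11.84. It was the highest of 10 without RA and at RA 24 h and inside the range at RA 36 h, with a difference of 0.15 (CI -0.01 to 0.31). Pdcd4, an inhibitor of the helicase eIF4A, differed by 0.20 (CI -0.06 to 0.47), Eif4ebp2 by 0.14 (CI -0.08 to 0.35) and Ulk1, the kinase that starts autophagy, by 0.05 (CI -0.20 to 0.30). Rps6, the ribosomal protein that S6 kinases phosphorylate, differed by 0.04 (CI -0.11 to 0.18). At the other end was Sgk1, a kinase downstream of complex 2, at 10.33, 8.75 and 10.37 under Rapamycin, against 10.51 to 11.43, 8.34 to 9.42 and 9.63 to 10.44 (difference -0.16, CI -0.53 to 0.21).

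**Figure D2:**
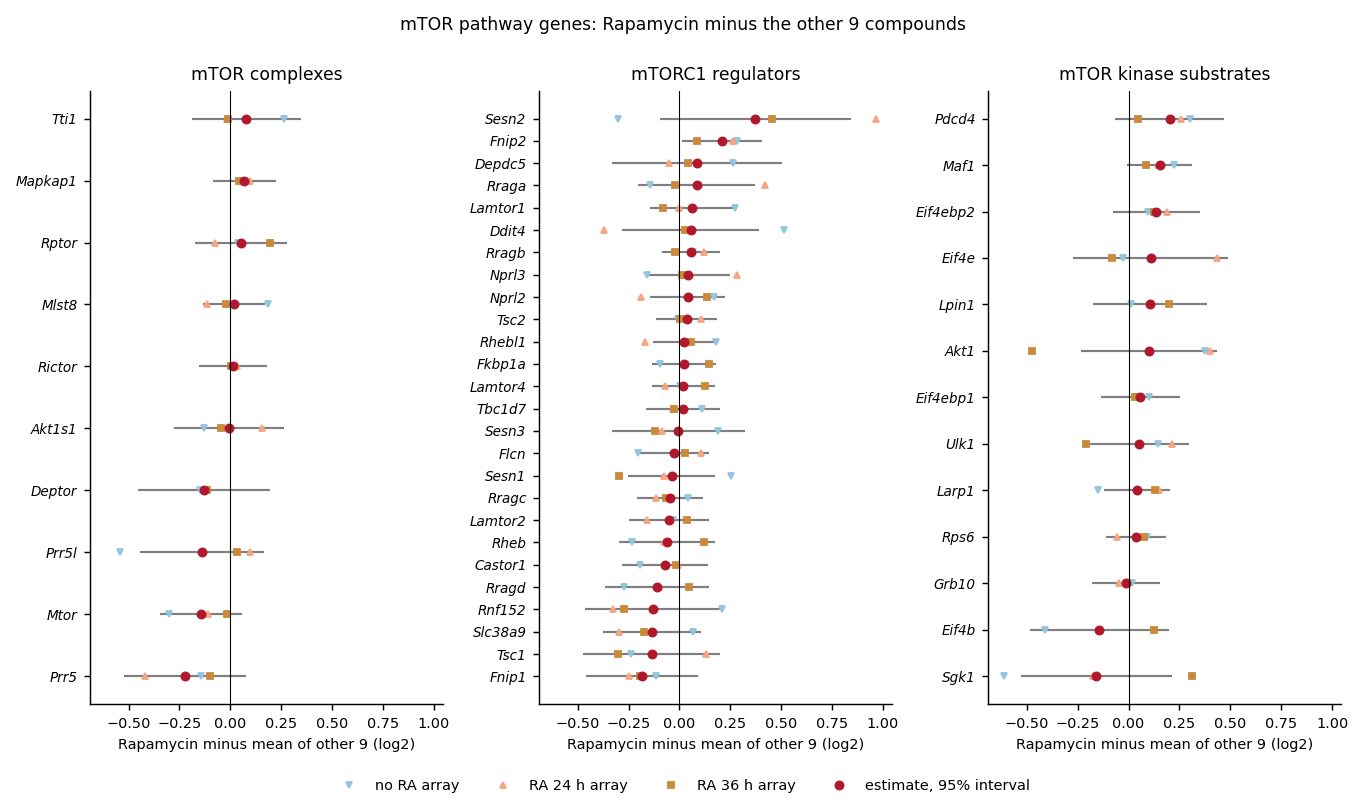
Rapamycin minus the mean of the other 9 compounds (log2) for the 49 tested members of the 3 mTOR lists. Red circles are the estimates with 95% intervals (grey lines, n = 3 Rapamycin arrays against 27), and small symbols are the single arrays of each schedule. The estimates lie between -0.22 (Prr5) and 0.37 (Sesn2), and Fnip2 has the only interval that leaves out 0.

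In all, 34 gene lists were described: the 3 above, lists tied to mTOR outputs, and lists for stress, signalling and cell identity. Of their 748 distinct tested members, 0 were called and 18 (2.41%) had an unadjusted p under 0.05, against 3.48% of all genes. In 20 lists there was no such member. The list medians ran from -0.13 (trophoblast markers) to 0.099 (Hedgehog response), and 33 of the 34 lay within 0.1 of 0. These lists were chosen with earlier results of these data known and are described by counts and medians only.

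Translation genes had medians close to 0. Of 79 cytosolic ribosomal protein genes, 53 were tested, 31 on the positive side, with a median difference of 0.0053 and a range of -0.12 to 0.30, and 0 had an unadjusted p under 0.05. Rplp1, Rpl41 and Rps2, the brightest of them, differed by 0.00 (CI -0.13 to 0.14), 0.02 (CI -0.11 to 0.14) and 0.02 (CI -0.11 to 0.15). The upper end of the range, 0.30, was Rpsa, whose probe was near background at RA 24 h. It was detected there on 2 of the other 9 compounds' arrays, which read 4.61 to 5.44. Ribosomal proteins belong to large families with many processed copies in the genome, and probes could read more than 1 copy. Translation factors (23 tested) had a median of -0.0021, with the elongation factor Eef1a1 at 0.01 (CI -0.11 to 0.12). Ribosome assembly and RNA polymerase I genes (40 tested) had a median of 0.028, and Npm1, an abundant nucleolar chaperone, differed by -0.04 (CI -0.24 to 0.15).

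Lysosome and autophagy genes lay slightly on the negative side, with 10 of 31 and 11 of 26 tested members above 0 and medians of -0.028 and -0.037. No member of either list had an unadjusted p under 0.05 against all the other compounds. Against the slide mates, 1 lysosome gene and 3 autophagy genes were lower at that unadjusted level. In both lists 0 were higher and 0 were called. Of all genes, 2.88% were higher and 2.86% lower there. The list medians against the slide mates were -0.052 and -0.0087. The differences that follow are again from the mean of all the other compounds. Mcoln1, a lysosomal calcium channel, had the largest estimate of the genes with the TFEB core, 0.30 (CI -0.10 to 0.71). The cathepsins Ctsd and Ctsa differed by 0.10 (CI -0.32 to 0.53) and 0.04 (CI -0.22 to 0.29). Cln3, a lysosomal membrane protein, Atp6v0d1, a subunit of the proton pump, and Atg3, an enzyme of LC3 lipidation, differed by -0.07 (CI -0.31 to 0.17), -0.07 (CI -0.23 to 0.10) and 0.02 (CI -0.30 to 0.34). Atp6v0e and Atp6v1a, also proton pump subunits, differed by -0.03 (CI -0.17 to 0.12) and -0.02 (CI -0.29 to 0.25), and the median of the 8 genes was -0.00010. All tested genes with the core in the promoter, 210 in number, had a median of -0.0031, and 7 (3.33%) had an unadjusted p under 0.05, against 3.62% of the 9967 tested genes with a promoter sequence. Among the brightest lysosome and autophagy genes, Asah1, a ceramidase, and Lamp1, a membrane glycoprotein, differed by -0.02 (CI -0.20 to 0.16) and -0.04 (CI -0.23 to 0.15), and Gabarap, an LC3 relative, by -0.12 (CI -0.37 to 0.13).

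Metabolic lists differed among themselves in sign. Of 29 tested sterol and fatty acid synthesis genes, 22 lay above 0, with a median of 0.046. Sqle, the squalene epoxidase, differed by 0.13 (CI -0.04 to 0.30), Fads1, a fatty acid desaturase, by 0.10 (CI -0.09 to 0.29) and Acly, which makes cytosolic acetyl-CoA, by 0.01 (CI -0.20 to 0.21). Glycolysis and hypoxia genes (33 tested) had a median of 0.013 over all schedules, made of 0.15 without RA, -0.13 at RA 24 h and -0.05 at RA 36 h. Among them Slc2a1, the main glucose transporter, differed by 0.12 (CI -0.10 to 0.35) and Gapdh by 0.04 (CI -0.11 to 0.18). In the pentose phosphate and nucleotide list (26 tested, median 0.0017) Tkt, a transketolase chosen after its values were seen, had an unadjusted p under 0.05. It was at 11.63 without RA, 10.94 at RA 24 h and 11.06 at RA 36 h under Rapamycin, against 11.14 to 11.54, 10.66 to 11.04 and 10.63 to 11.10 under the other 9 compounds, highest of 10 without RA only (difference 0.21, CI 0.03 to 0.38).

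Amino acid response genes driven by ATF4 (43 tested) had a median of -0.00049, and the brightest, Gars, Slc7a3 and Asns, differed by -0.08 (CI -0.24 to 0.07), 0.01 (CI -0.16 to 0.19) and 0.11 (CI -0.06 to 0.28). Nupr1, a small stress-induced chromatin protein, was the 1 member with an unadjusted p under 0.05. Its level was 5.42 without RA, 5.86 at RA 24 h and 6.95 at RA 36 h under Rapamycin, against 5.49 to 6.41, 6.32 to 7.09 and 6.42 to 7.47 under the other 9 compounds. It was the lowest of 10 without RA and at RA 24 h, and the difference was -0.50 (CI -0.89 to -0.11, adjusted p 0.9998). Respiratory chain (46 tested) and proteasome genes (29 tested) had medians of 0.013 and -0.011 with no member at an unadjusted p under 0.05.

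**Figure D3:**
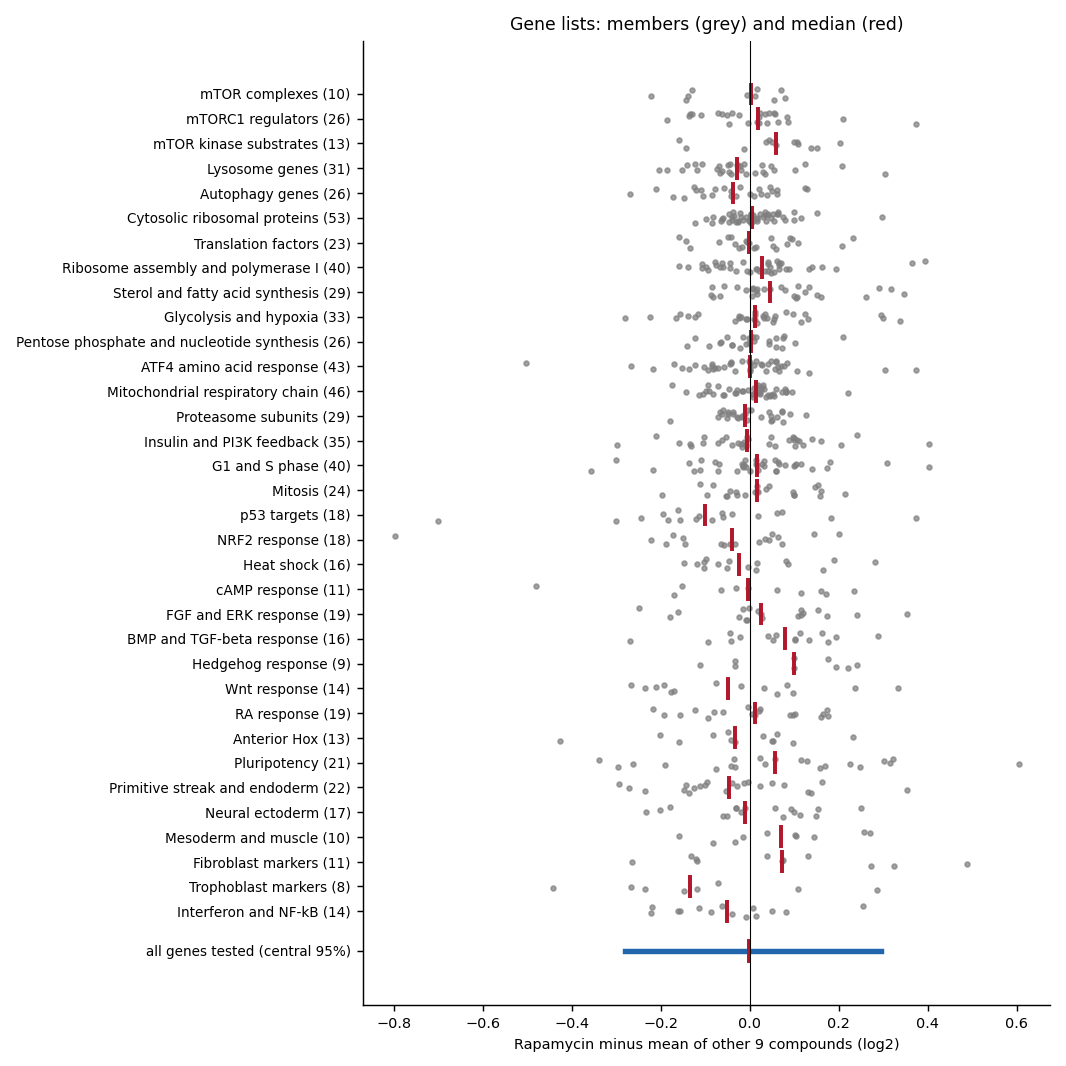
Rapamycin minus the mean of the other 9 compounds (log2, x axis) for the tested members of 34 gene lists (grey points, number tested in brackets), with the median of each list in red. The blue bar holds the central 95% of all 16235 genes, -0.28 to 0.29, and every list median lies between -0.13 and 0.099.

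Of 40 tested G1 and S phase genes, 3 (7.5%) had an unadjusted p under 0.05, 2 higher and 1 lower, against 3.48% of all genes. They are named here after their values were seen. Cdkn1b, the cell cycle inhibitor p27, differed by 0.40 (CI 0.07 to 0.73) and was at 5.05, 5.81 and 5.84 under Rapamycin without RA, at RA 24 h and at RA 36 h, against 4.59 to 5.15, 4.90 to 5.80 and 4.68 to 5.64 under the other 9 compounds. It was highest of 10 in both RA schedules, close to the detection limit, and detected on 2 of the 3 Rapamycin arrays. E2f1, a factor that drives entry into S phase, differed by 0.31 (CI 0.06 to 0.55) and Ccnd2, a G1 cyclin, by -0.22 (CI -0.43 to -0.0046). The G1 and S phase list as a whole (40 tested) had a median of 0.015, with Mcm4, a subunit of the replicative helicase, at 0.03 (CI -0.12 to 0.18) and Cdk4 at 0.00 (CI -0.17 to 0.18). Mitosis genes (24 tested) had a median of 0.016 and 0 members at an unadjusted p under 0.05, and Top2a, a topoisomerase of dividing cells, differed by 0.01 (CI -0.26 to 0.28). Insulin and PI3 kinase feedback genes (35 tested) had a median of -0.0063, with Irs2, an insulin receptor substrate, at -0.02 (CI -0.26 to 0.22).

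Of the stress lists, p53 targets had a median of -0.10, with 5 of 18 tested members above 0 and 1, Fas, at an unadjusted p under 0.05. Against the slide mates 1 p53 target was higher and 4 were lower at that unadjusted level, 0 of them called, beside 2.88% of all genes higher and 2.86% lower. Ccng1 and Mdm2, the brightest p53 targets, differed by -0.08 (CI -0.27 to 0.10) and -0.16 (CI -0.39 to 0.07). Mt2, a metallothionein in the NRF2 list named after its value was seen, was measured above background on 1 of 3 Rapamycin arrays and on 27 of 27 others, so its difference of -0.80 (CI -1.37 to -0.23, adjusted p 0.9998) rests in part on background values. It was at 6.39 without RA, 5.12 at RA 24 h and 4.87 at RA 36 h under Rapamycin, against 5.79 to 7.21, 5.32 to 7.22 and 5.49 to 6.46 under the other 9 compounds. The Rapamycin array was the lowest of 10 in both RA schedules, where the probe was not detected on it, and sixth without RA.

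Of the lists for pathways that comparators act on, BMP and TGF-beta, FGF, cAMP and Hedgehog response genes had medians of 0.080, 0.026, -0.0048 and 0.099. Pde4b, a phosphodiesterase induced by cAMP, differed by -0.48 (CI -0.83 to -0.13), and Skil, a feedback gene of Activin signalling, by 0.29 (CI 0.02 to 0.56), both with adjusted p of 0.9998. Hey1, like Skil in the BMP and TGF-beta list, went the other way, at -0.27. At an unadjusted p under 0.05 were 2 of 16 tested BMP and TGF-beta, 0 of 19 FGF, 1 of 11 cAMP and 1 of 9 Hedgehog genes. The share over all genes was 3.48%. Of the identity lists, RA response genes (19 tested) and anterior Hox genes (13 tested) had medians of 0.011 and -0.033, and pluripotency genes (21 tested) 0.058, made of -0.10 without RA, 0.03 at RA 24 h and 0.26 at RA 36 h. Against the slide mates the medians were 0.048 for anterior Hox genes, on the other side of 0, and 0.014 for pluripotency genes. Trophoblast markers had 3 of 8 tested members, Tfap2c, Krt8 and Elf5, lower at an unadjusted p under 0.05, as had 1.64% of all genes. Against the slide mates 1 member, Krt8, was lower and 1, Krt7, another keratin, higher at that level, with differences of -0.25 and 0.40, and Krt7 differed by 0.29 from all 9 compounds. Tfap2c, a transcription factor of trophoblast and germ cells, differed by -0.44 (CI -0.75 to -0.13), Krt8, a keratin of simple epithelia, by -0.23 (CI -0.44 to -0.03), and Elf5 was detected on 0 of the 3 Rapamycin arrays.

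Of 11 tested fibroblast genes, Dcn, which encodes the matrix proteoglycan decorin, was the 1 with an unadjusted p under 0.05, and it is named after its value was seen. The collagens Col1a1, Col1a2 and Col3a1 differed by -0.27, 0.13 and 0.04, and the list median was 0.073 against the other 9 compounds and -0.0014 against the slide mates. Dcn was at 9.81 without RA, 9.76 at RA 24 h and 10.31 at RA 36 h under Rapamycin, against 8.93 to 9.69, 8.84 to 9.35 and 9.19 to 10.23 under the other 9 compounds. Rapamycin was the highest of 10 in each schedule, and the difference of 0.49 (CI 0.24 to 0.74) did not pass (adjusted p 0.968). Mock had 9.27 without RA and 9.97 at RA 36 h. The mean level over the 5 tested fibroblast markers was 6.84 without RA, 6.33 at RA 24 h and 7.63 at RA 36 h under Rapamycin, against 6.35 to 6.76, 6.27 to 6.72 and 6.86 to 7.47 under the other 9. That mean includes Dcn. Over the 4 markers without Dcn it was 6.10, 5.47 and 6.95 under Rapamycin, against 5.66 to 6.03, 5.62 to 6.14 and 6.28 to 6.85, above all others without RA and at RA 36 h and below all others at RA 24 h. The part of these markers in the value of Dcn was not tested. In bulk samples fewer cells of a type and less RNA per cell cannot be told apart.

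Complete separation from the other compounds was rare. Rapamycin was above all 9 others in every schedule for 10 genes (0.0616%) and below all 9 for 8 genes (0.0493%), 18 in all. The count was 8 to 28 for the other compounds except Docetaxel, with 194. The 10 higher genes, named after their values were seen, included Dcn, Olfr917, Ranbp17, Cnn2, an actin-binding calponin, and Smarcb1, a subunit of SWI/SNF remodellers, with differences of 0.49, 0.58, 0.56, 0.52 and 0.25. Ranbp17 had a mean level of 4.96, below the detection limits of 5.06 to 5.37 on the compound arrays, and Olfr917 was also near them. The separation of both rests in part on background values. The 8 lower genes included Gnb1l, Fas, Lrrk1, a kinase, and Zmpste24, the protease that matures lamin A, with differences of -0.81, -0.70, -0.30 and -0.19.

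Because 0 genes passed, the 10 largest differences each way with the same sign in all schedules are given as values that did not pass. Of all genes, 10.9% were higher and 12.7% lower under Rapamycin in all 3 schedules. On the positive side, St8sia3, a sialyltransferase, was at 6.52 without RA, 7.09 at RA 24 h and 5.94 at RA 36 h under Rapamycin, against 5.15 to 6.19, 5.47 to 6.50 and 4.87 to 6.03 under the other 9 compounds. It was highest of 10 in the first 2 of these schedules and second at RA 36 h, where Mock had 6.18 (difference 0.75, CI 0.43 to 1.07, adjusted p 0.414). A second probe of St8sia3 differed by -0.13. Olfr917, an olfactory receptor, was at 4.96, 5.27 and 5.60 under Rapamycin, against 4.56 to 4.76, 4.47 to 4.95 and 4.41 to 5.20 under the other 9, above all others each time but near the detection limit of about 5.15 to 5.27 on the Rapamycin arrays (difference 0.58, CI 0.32 to 0.84, adjusted p 0.414). Olfr917 was detected on 2 of the 3 Rapamycin arrays and 1 of the 27 others, so its difference is partly set by background values. It may have passed the detection filter, set at 3 arrays, only through the Rapamycin arrays.

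Otx2, a homeobox factor of the epiblast and the forebrain, was the only named gene of the epiblast marker list. Its level was 11.60 without RA, 7.06 at RA 24 h and 7.09 at RA 36 h under Rapamycin, against 11.27 to 11.55, 6.43 to 7.44 and 4.82 to 6.80 under the other 9 compounds. The difference of 0.61 (CI 0.08 to 1.13, adjusted p 0.9998) came mostly from RA 36 h, where it was 1.39, beside 0.25 at RA 24 h and 0.18 without RA. Against the slide mates alone it was 0.38 (CI 0.08 to 0.68), with 0.74 at RA 36 h. In that schedule Otx2 was at 5.95 to 6.80 on the slide mates and at 4.82 to 5.41 on the other slide's compounds. The part of the slide in the 1.39 was not tested. The other positive differences were those of Tigd3 (0.71), a transposase-derived gene, Wdr38 (0.67), a WD-repeat gene, Plppr3 (0.63), a phospholipid phosphatase relative, L3mbtl1 (0.63), a reader of methylated histones, Myl3 (0.61), a muscle myosin light chain, Fhit (0.59), a dinucleotide hydrolase, and Ino80d (0.57), a chromatin remodeller subunit. L3mbtl1 was detected on 2 of 3 Rapamycin arrays and 2 of 27 others, Fhit on 2 and 7, Tigd3 on 3 and 11, Wdr38 on 3 and 12, Ino80d on 3 and 13, and Plppr3 on 3 and 16, so these differences are partly set by background values. All 7 had an adjusted p of 0.9998, and a second probe of Wdr38 differed by -0.07. L3mbtl1, like Olfr917, may have passed the detection filter only through the Rapamycin arrays.

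On the negative side, Gnb1l, a WD-repeat protein related to G protein beta subunits, was at 4.85 without RA, 5.02 at RA 24 h and 4.78 at RA 36 h under Rapamycin, against 5.37 to 6.25, 5.16 to 6.13 and 4.84 to 6.22 under the other 9 compounds. It was the lowest of 10 in each schedule and detected on 0 of 3 Rapamycin arrays, against 25 of 27. The measured means, 4.89 and 5.70, gave a difference of -0.81 (CI -1.16 to -0.46, adjusted p 0.414). Because the Rapamycin side was not above background, the fold is a bound, at least 1.41-fold lower under Rapamycin, reckoned from each Rapamycin array's lowest detected value. That bound is of the main normalisation and carries no interval. With the deposited log2 values Gnb1l differed by only -0.097. Mock had 5.05 without RA and 6.44 at RA 36 h. With SU5402 left out of the comparator Gnb1l passed the test (difference -0.85, limma adjusted p 6.00e-05); the SU5402 array was at 4.84 at RA 36 h.

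Fas, the death receptor and a p53 target, was at 4.89, 4.82 and 4.74 under Rapamycin in the same order, against 4.97 to 5.64, 4.89 to 5.92 and 4.97 to 6.12 under the other 9 compounds. It was also the lowest of 10 each time and detected on 0 of 3 arrays, against 22 of 27. The means of 4.82 and 5.52 differed by -0.70 (CI -1.06 to -0.35, adjusted p 0.797), a bound of at least 1.24-fold lower, and a second probe of Fas differed by 0.08. Exoc3l4, an exocyst relative, and Cav2, a caveolin, were detected on 0 of 3 Rapamycin arrays too, and only for Exoc3l4 was there a bound above 1, at least 1.23-fold lower (adjusted p 0.9998, means 4.95 and 5.51). Over the 23 alternatives the difference of Fas ranged from -0.87 to -0.085 and that of Exoc3l4 from -0.81 to -0.068. The bounds given are of the main normalisation and carry no interval. Of the genes detected on more arrays, Lgals3, which encodes a galectin, was the brightest, at 8.01, 8.72 and 9.82 under Rapamycin, against 8.39 to 10.02, 8.04 to 9.90 and 9.81 to 10.54 (difference -0.58, CI -1.08 to -0.09). The remaining differences were -0.63 for Gipc2, a PDZ protein, -0.60 for Phf19, a cofactor of Polycomb complex 2, -0.56 for Tfpi, a coagulation inhibitor, -0.54 for Ganc, a glucosidase, and -0.54 for Sct, the hormone secretin, each with an adjusted p of 0.9998. A second probe of Ganc differed by -0.06.

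**Figure D4:**
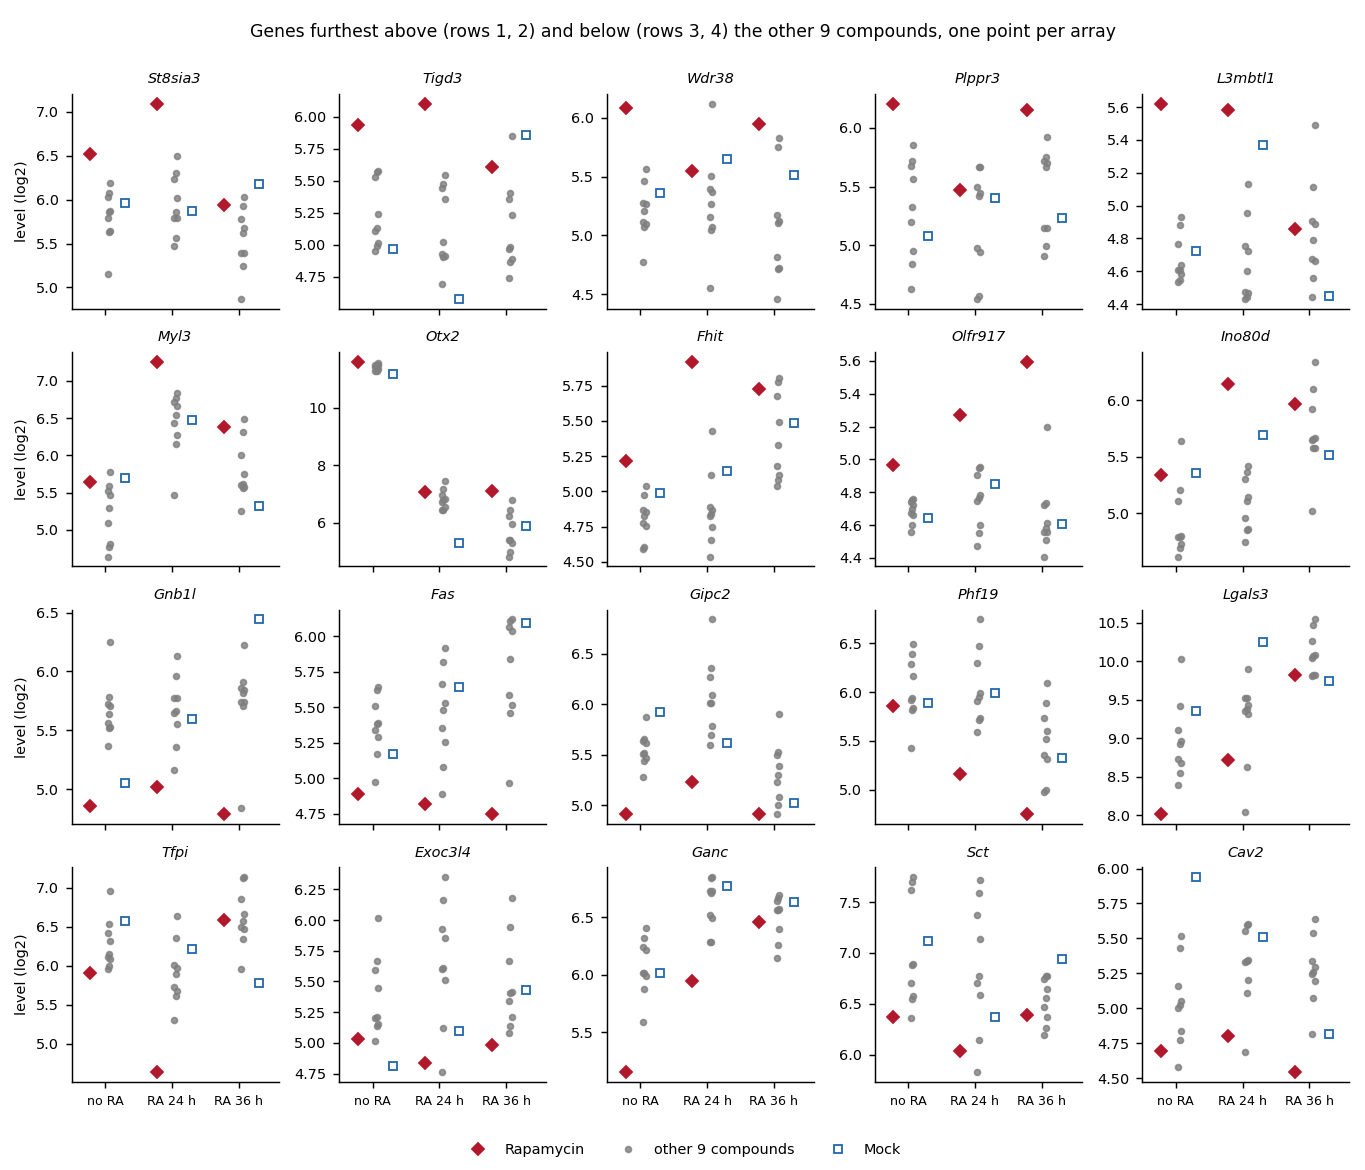
Level (log2) of the 10 genes furthest above (upper rows) and the 10 furthest below (lower rows) the other 9 compounds, by schedule. Each point is 1 array: Rapamycin in red at the left, the other 9 compounds in grey, Mock as an open blue square. None of the 20 passed the test. Gnb1l and Fas lie below all 9 others in every schedule at levels of 4.74 to 5.02, where the probes were not detected.

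The comparison inside slides gave the same picture with 1 exception. Against the 4 slide mates (15 arrays, 8 residual degrees of freedom) limma called 1 of 16235 genes (0.00616%), Gnb1l, which fell under Rapamycin with a difference of -0.86 (CI -1.08 to -0.64, adjusted p 0.0321), which is at least 1.45-fold lower by the bound. It was at 4.85 without RA, 5.02 at RA 24 h and 4.78 at RA 36 h under Rapamycin, not detected, against 5.37 to 5.73, 5.36 to 6.13 and 5.70 to 6.22 on the 12 slide mate arrays, all of which detected it. The call was lost without any 1 of the 3 schedules (limma adjusted p 0.459 without RA 36 h, 0.690 without RA 24 h and 0.596 without the arrays that had no RA). It was also lost with the deposited log2 values (limma adjusted p 0.492), where the difference of Gnb1l was only -0.10. Unadjusted, 467 genes were higher (2.88%) and 465 lower (2.86%), and 932 in all (5.74%). Of the 49 mTOR pathway genes 0 were called and 3, Sesn2, Fnip2 and Fnip1, had an unadjusted p under 0.05, with differences of 0.51, 0.24 and -0.25. The simulation recovered 38.8% of changes of 0.5 and 94% of changes of 1 in this smaller comparison, with 15 unchanged genes called and the same limits as above.

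Wortmannin acts upstream of mTOR, on PI3 kinases, and was given at 50 nM beside 100 nM of Rapamycin. The direct contrast of both drugs called 0 of 16235 genes (0%), with a lowest adjusted p of 0.999 and 657 genes at unadjusted p under 0.05 (4.05%, with 1.77% higher and 2.28% lower under Rapamycin). The median half-width of the 95% interval was 0.374, and 15793 intervals (97.3%) lay within 1 log2 unit of 0, so the limits are wider than against all 9 compounds. Of the mTOR pathway genes 0 of 49 had an unadjusted p under 0.05, with differences between -0.30 and 0.44, and Mtor and Eif4ebp1 differed by -0.13 (CI -0.41 to 0.14) and 0.14 (CI -0.12 to 0.40). Irs2, which insulin signalling holds down, differed by 0.03 (CI -0.29 to 0.35), and Foxo1, a factor restrained by PI3 kinase, by 0.12 (CI -0.21 to 0.46). A p that misses the threshold does not show that both drugs act alike, and they lay on different slides in every schedule, so slide and drug cannot be told apart here.

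Whether the Rapamycin difference was unlike with and without RA was tested with an interaction term, in which the side without RA rests on 1 Rapamycin array. The compound arrays without RA lay on other slides than those with RA. The RA 24 h arrays also had the compound for 36 h, against 24 h without RA. RA, slide and compound time cannot be told apart in this term. It called 0 of 16235 genes (0%), with 885 at unadjusted p under 0.05 (5.45%, of which 2.56% had a positive and 2.89% a negative term) and a median half-width of 0.586. With the deposited log2 values it called 2 genes and with a floor at 16 in place of the normexp background correction 60, so the count depends on how low signals were treated. The lowest adjusted p was 0.325, for Jag2, a Notch ligand named after its value was seen. Rapamycin minus the other 9 was 0.91 for Jag2 without RA, -0.27 at RA 24 h and -0.22 at RA 36 h. In the mTOR lists 3 members had an unadjusted p under 0.05, Sesn2 (interaction 1.02, SE 0.39), Ddit4 (-0.68, SE 0.29) and Sesn1 (-0.44), with adjusted p of at least 0.866. The interaction of Otx2 was 0.64 (SE 0.57) and that of Pou5f1 0.61 (SE 0.46), neither at an unadjusted p under 0.05.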

How the data were processed

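RNA of 36 EpiSC samples was hybridised to Illumina mouseWG-6 v2 bead arrays, 6 to a slide, per the labels' protocols. The authors deposited probe intensities, partly below zero and so already background-subtracted, with a detection p-value per probe and array, per the file headers. The authors' log2 values, made with lumi per the submitters' processing notes (version not given), served as an alternative.

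Here, all 36 arrays were normalised with neqc of limma 3.58.1 in R 4.3.3 (offset 16, background estimated from the detection p-values), which gives log2 levels. Of 45281 probes, 23999 had a detection p-value under 0.05 on at least 3 arrays. The brightest probe stood for each gene symbol, which left 16235 genes or unnamed probes, 12367 of them with a symbol. Limma models with compound and schedule as factors were fitted over the 30 compound arrays (Rapamycin minus the mean of 9, and minus Wortmannin), over the 15 arrays of the slides with Rapamycin, and with an interaction of Rapamycin with RA. Benjamini-Hochberg adjustment ran over all 16235 genes, with a threshold of 0.05. The error includes any difference between schedules in a compound's effect, since each compound had 1 array a schedule. The number of arrays limits the precision. The test was run on simulated data first.

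Named genes were the 10 largest differences each way with the same sign in all schedules and slides, leaving out clone names. The members and gene lists were chosen with earlier results of these data known. Genes named for an unadjusted p, for complete separation, or as Jag2, Ranbp17 and Eomes, and the promoter motif, were chosen after their values were seen.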

Additional observations from a re-analysis of the deposited data

Results flagged for a closer look

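In the groups of 9 comparator arrays, 4 of 60 gene and schedule combinations held an array far from the rest by Dixon's ratio (95% critical value for 9 samples), where chance flags about 1 in 20. For Gnb1l, SU5402 was the lowest of the 9 at RA 36 h, at 4.84 against 5.70 to 6.22 on the other 8 arrays, and the highest without RA, at 6.25 against 5.37 to 5.78. For Olfr917, BAPTA-AM was the highest at RA 36 h, at 5.20 against 4.41 to 4.74. For Myl3, Docetaxel was the lowest at RA 24 h, at 5.47 against 6.15 to 6.83.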

How the results depend on the processing

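Against the other 9 compounds, 21 of 23 alternatives also called 0 genes, with 156 (no schedule block) to 1072 genes (no filter on detection, 29453 tested) at unadjusted p under 0.05. A floor at 16 in place of normexp called 1, Ranbp17 (0.74, limma adjusted p 0.00444), whose mean level of 4.96 lay below the detection limits. A comparator without SU5402 called 1, Gnb1l (limma adjusted p 6.00e-05). Against the slide mates the count was 0 with the deposited log2 values, with trended robust moderation, with slide as a fixed block over 30 arrays, with 2 groups, and without PF573228, Dorsomorphin dihydrochloride or BAY 11-7082 in the comparator. Leaving out 1 replicate each gave 0 to 0. It stayed at 1, Gnb1l, with the floor, with median scaling and without Forskolin, and the adjusted p of Gnb1l ranged from 0.0178 to 0.690. For the interaction, the deposited log2 values called 2, among them Eomes (0.49, adjusted p 0.0323), and the floor called 60. Median scaling and slide as a random block called 0, and the fits without an RA schedule were not run, since no residual degrees of freedom remain. The 7 alternatives against Wortmannin called 0, with a lowest adjusted p of 0.335. No called result took the other sign. Values that were not called did so in at least 1 of 23 alternatives for 21 of 34 list medians, among them mTOR complexes in 7, insulin and PI3K feedback in 8 and translation factors in 6, and for 28 of 49 mTOR members. The cause of these changes was not tested. Of the 20 named genes 0 changed sign, but they were picked as the largest differences with the same sign in every schedule and slide. Leaving out 1 schedule could therefore not turn their sign, and that count does not measure how firm they are. No paired analysis was possible because each compound has 1 array per schedule and the schedule is already the block in these fits. Signals near the detection limit bound what can be said of Gnb1l, Fas, Olfr917, Ranbp17, L3mbtl1, Fhit and Mt2, and of Rraga, Rnf152, Fnip2 and Akt1 in the mTOR lists.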
